A study of Mus musculus with 4 samples.

Results

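Neutrophil transcript rich spots were the spots of 4 mouse lung sections in which the transcripts of S100a8, S100a9 and Retnlg took the largest share of all transcripts. They were chosen by a score, the summed unique molecular identifiers (UMIs) of these 3 genes divided by all UMIs of a spot, among spots with at least 2000 UMIs, and the highest 5% of spots in each section were taken. This gave 231 of the 4933 spots of the series, and the other 4401 eligible spots served for comparison. The sections came from lungs of 4 C57BL/6J mice, 1 male and 1 female that had been vaped (V) and 1 male and 1 female that had not (NV), and all mice were 6 to 8 weeks old at the start. V mice breathed the aerosol of a flavoured vape juice from JUUL devices in a whole-body chamber for 4 h per day, 5 days per week, over 9 weeks. Each mouse gave 1 cryosection on a Visium slide, on which barcoded spots capture the polyadenylated RNA of the tissue above them, so a spot can hold several cells of different types.

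Neutrophils are short-lived granulocytes that leave the bone marrow, circulate in the blood and gather in large numbers in the capillaries of the lung. S100A8 and S100A9 form calprotectin, the most abundant cytosolic protein of these cells, which binds metal ions and, once released, signals through TLR4 and the receptor for advanced glycation end products. Retnlg encodes a resistin-like protein of mouse neutrophils. S100a8 and S100a9 can also be expressed by monocytes and by stressed epithelium, and the remaining lists of cell markers below were examined for that reason.

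The 3 genes of the rule lie on chromosome 3 (S100a8, 90668978 to 90670035, and S100a9, 90692632 to 90695721, on opposite strands) and on chromosome 16 (Retnlg, 48872621 to 48874496), in GRCm38 coordinates from GENCODE. The bases before their starts are shown because these genes chose the spots together, and those before Csf3r (chromosome 4, 126024550 to 126044440) because it is the neutrophil gene outside the rule with the smallest p in the comparison with other spots. Sequences are from RefSeq on GRCm38.p6, 5′ to 3′ on the strand of the gene, and stop before any annotated transcript, and capitals mark the letters of TTGCNNAA (a C/EBP motif), GAGGAA (a PU.1 motif) or TATAAA on either strand.
S100a8 (chr3:90668821-90668977, plus strand): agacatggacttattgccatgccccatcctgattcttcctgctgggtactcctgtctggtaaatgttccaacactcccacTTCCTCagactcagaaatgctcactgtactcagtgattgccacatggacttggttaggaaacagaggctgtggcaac
S100a9 (chr3:90695722-90695971, minus strand): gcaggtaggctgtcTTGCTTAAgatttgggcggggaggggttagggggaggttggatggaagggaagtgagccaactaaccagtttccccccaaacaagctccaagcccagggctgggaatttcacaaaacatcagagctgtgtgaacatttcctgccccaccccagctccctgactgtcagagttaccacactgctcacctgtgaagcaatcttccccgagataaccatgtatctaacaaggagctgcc
Retnlg (chr16:48872358-48872607, plus strand): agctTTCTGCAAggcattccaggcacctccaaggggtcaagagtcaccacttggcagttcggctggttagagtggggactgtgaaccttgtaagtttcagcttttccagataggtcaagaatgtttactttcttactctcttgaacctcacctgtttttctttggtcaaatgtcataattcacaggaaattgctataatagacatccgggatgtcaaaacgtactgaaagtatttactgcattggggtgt
Csf3r (chr4:126024409-126024549, plus strand): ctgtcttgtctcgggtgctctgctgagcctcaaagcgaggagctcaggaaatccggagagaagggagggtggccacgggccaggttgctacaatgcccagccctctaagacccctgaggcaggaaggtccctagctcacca
Over the full windows of 300 bases, from 250 bases before to 50 bases after the RefSeq start, the C/EBP letters occurred in S100a9 and Retnlg, the PU.1 letters in S100a8 and Csf3r, and TATAAA in S100a8 and S100a9. Of all 32851 such windows, 10.8%, 28.3% and 13.6% held these letters, so no motif was shared by all 4 genes and the matches are descriptions of sequence.

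Where 4 values follow each other below, they belong to the NV male, NV female, V male and V female, in this order. The rich spots numbered 39 of 781 eligible spots, 22 of 436, 74 of 1489 and 96 of 1926. The summed rule genes made up at least 5.64, 6.63, 15.7 and 3.45 of every 10000 UMIs in them, against at most 5.61, 6.56, 15.7 and 3.44 in the highest spot left out. The sections differed in how the transcripts were spread. In the V male, 10.1% of eligible spots lacked any UMI of the 3 genes and the rich spots held 20.1% of the section's rule gene UMIs, whereas in the NV sections and the V female 40.5%, 30.96% and 47.9% of spots had none and the rich spots held 27.9%, 35.9% and 31.6%. A rich spot carried a median of 7, 10.5, 15 and 3 rule gene UMIs. In the V female 50 of the 96 rich spots rested on 3 or fewer such UMIs, which limits what each of them shows. The richest spot of the series also lay in the V female, with 123 rule gene UMIs among 8248, or 149 of every 10000. Rich spots were shallower than the others in the V female (medians of 5930 and 12760 UMIs) and NV male (7414 and 10262 UMIs), and closer to them in the NV female (10669 and 11092 UMIs) and V male (6065 and 6540 UMIs). The slides reuse their barcodes, 1411 of 2583 distinct barcodes occurred in at least 2 sections, and 8 barcodes marked a rich spot in more than 1 section.

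The tissue under the spots differed between sections as well as between rich and other spots. Spots of lung parenchyma, defined by at least 50% of the section's median share of alveolar and capillary markers, made up 97.4%, 95.5%, 100% and 97.9% of rich spots in the NV male, NV female, V male and V female. They made up 78.2%, 71.7%, 99.9% and 75.5% of the other spots. Transcripts of cardiac muscle reached 31.4 counts per 1000000 UMIs (CPM) in the other spots of the V male and between 6273 and 11680.3 CPM in those of the remaining sections, so the V male section held hardly any such tissue. Results below are therefore also given for parenchyma spots alone, with the rich spots chosen anew among them.

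In rich spots the rule genes stood high because they had chosen the spots, and their levels are given as a description. S100a8 was at 393, 665, 977 and 353 CPM, against 40.1, 44.6, 157 and 21.0 CPM in the other spots. S100a9 was at 539, 665, 1318 and 460 CPM, against 56.1, 51.5, 235 and 25.3 CPM. Retnlg was at 24.7, 78.4, 439 and 44.6 CPM, against 4.13, 4.96, 66.6 and 2.49 CPM. The other spots of the V male thus held more Retnlg than the rich spots of the NV male and V female. S100a8 and S100a9 were found together in 30 of 39, 20 of 22, 72 of 74 and 60 of 96 rich spots, and all 3 genes in 6, 9, 57 and 19 of them.

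Whether the 3 genes mark the same spots was tested on values that had not been used for the choice. When spots were chosen on S100a8 and S100a9 alone, Retnlg was higher in the chosen spots of all 4 sections, with 21.8 against 4.24 CPM, 59.9 against 5.57, 394 against 69.1 and 39.0 against 2.67 CPM. The log2 fold change was 2.77 (SE 0.17; edgeR adjusted p = 1.24e-58, n = 4 sections). When spots were chosen on Retnlg alone, S100a8 was higher by 1.80 (SE 0.12, adjusted p = 8.13e-17) and S100a9 by 1.67 (SE 0.13, adjusted p = 1.21e-15) on the log2 scale, again in 4 of 4 sections. The spots chosen on Retnlg alone were largely others, and 6 of 39, 8 of 22, 30 of 74 and 22 of 96 were also rich spots. In the NV male only 35 of the 39 held any Retnlg UMI. The UMIs of each spot were also split at random into 2 parts, one for the choice and the other for the values. The log2 fold changes were then 2.92 for S100a8 (SE 0.12, adjusted p = 1.81e-128), 2.80 for S100a9 (SE 0.12, adjusted p = 8.36e-114) and 2.68 for Retnlg (SE 0.22, adjusted p = 3.20e-31). The same 3 genes made the choice in this split, so it cannot show whether they mark the same spots. It shows only that their excess recurred in UMIs not used for the choice, which would hold for any gene whose level varies between spots. Outside the split, each rule gene was higher in spots chosen without it, and the spots chosen on Retnlg alone were largely not rich spots.

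Neutrophil genes outside the rule were then compared between rich and other spots, with UMIs summed per section and section as a block. Of 14555 genes tested by edgeR, 625 (4.29%) passed an adjusted p of 0.05 with a log2 fold change over 0.25 in size, 61 (0.419%) higher and 564 (3.87%) lower in rich spots. Without the V female 297 genes were called, without the NV male 370 and without the NV female 392. Of 58 tested neutrophil genes, 11 were higher and 2 lower, and 7 passed without the V female. Their median log2 fold change was 0.26, against -0.05 for all genes tested. The higher genes included those of receptors and homing molecules (Csf3r, Cxcr2, Selplg, Clec4d and Ifitm6), granule and other neutrophil enzymes or proteins (Mmp8, Mmp9, Lcn2 and Arg2) and a cytokine (Il1b). Scaling by library size alone moved the median of all genes by 0.11 and gave 168 higher and 351 lower calls, so that 32.4% rather than 9.76% of calls were higher. The neutrophil median stayed above that of all genes, at 0.38 against 0.06. Such a shift was not particular to neutrophil genes. In the main fit, medians were 0.46 for NK cell, 0.45 for T cell and 0.30 for capillary endothelium markers, and lower than the neutrophil median for the remaining cell type lists. Summed CPM in rich spots were 1.33 to 1.79 times those in other spots for receptors and adhesion, 0.970 to 1.60 times for granule proteins and 1.02 to 1.21 times for cytokines and mature neutrophil genes.

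Among receptors, Csf3r encodes the receptor for granulocyte colony-stimulating factor, which drives neutrophil production. It was at 60.5, 33.6, 79.9 and 26.3 CPM in rich spots (22, 9, 38 and 23 UMIs), against 16.2, 7.51, 26.8 and 4.90 CPM in other spots. Its mean was 50.1 ± 24.7 CPM (SD, n = 4) in rich and 13.8 ± 9.87 CPM (SD, n = 4) in other spots, and every section showed the difference, with a log2 fold change of 1.84 (SE 0.22, edgeR adjusted p = 1.03e-13). Cxcr2, the receptor for neutrophil-attracting CXC chemokines, was counted 3, 3, 13 and 2 times in rich spots, or 8.24, 11.2, 27.3 and 2.29 CPM against 2.01, 1.05, 7.44 and 1.44 CPM. Its log2 fold change was 1.78 (SE 0.45, adjusted p = 0.00379), from few molecules. Selplg, the gene of the P-selectin ligand PSGL-1, rose by 0.61 (SE 0.16, adjusted p = 0.00440), the lectin receptor gene Clec4d by 1.297 (SE 0.36, adjusted p = 0.0136) and Ifitm6, an interferon-induced transmembrane protein gene, by 1.09 (SE 0.28, adjusted p = 0.00413), each in 4 of 4 sections. Of the 22 tested receptor and adhesion genes 6 passed, and none fell. The formyl peptide receptor genes Fpr1 and Fpr2 had log2 fold changes of 0.82 and 0.83 (adjusted p = 0.29 for each), and the integrin gene Itgam, which monocytes and macrophages share, one of -0.04 (adjusted p = 0.98).

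Among granule proteins, Mmp8, neutrophil collagenase of the specific granules, showed the largest log2 fold change in the neutrophil lists, 2.67 (SE 0.41, adjusted p = 2.59e-08). It was counted 5, 2, 17 and 7 times in rich spots, or 13.7, 7.47, 35.7 and 8.01 CPM against 3.01, 0.451, 5.14 and 1.08 CPM, and the rich spots of every section lay above the other spots of every section. Mmp9, gelatinase B of the tertiary granules, was at 52.2, 33.6, 54.6 and 17.2 CPM against 19.5, 21.8, 16.7 and 9.62 CPM, a log2 fold change of 1.12 (SE 0.22, adjusted p = 5.25e-05). Arg2, a mitochondrial arginase, rose by 1.10 (SE 0.32, adjusted p = 0.0171), though only from 4.33 to 4.58 CPM in the V female. Lcn2, an iron-withholding lipocalin that airway and alveolar epithelium also make, rose by 0.36 (SE 0.11, adjusted p = 0.0387). Of the list, 2 genes were lower. Hp fell by 0.37 (SE 0.12, adjusted p = 0.0433) and Ltf fell by 1.14 (SE 0.30, adjusted p = 0.00509). Hp encodes haptoglobin and Ltf lactoferrin, a specific granule protein that glands also secrete. Ltf was lower in the NV male and V female and higher in the NV female and V male, with 1, 4, 2 and 19 UMIs in rich spots. Prtn3, the gene of the primary granule protein proteinase 3, had enough counts to be tested and was not called. Other genes named with primary granules were at or near 0. Mpo (myeloperoxidase) and Ms4a3 had no UMI in any eligible spot, Elane (neutrophil elastase) had 0 in rich and 7 in other spots of the V female alone, and Ctsg (cathepsin G) had 1 UMI in the other spots of the NV male. Ngp and Camp, genes of secondary granule proteins made in the marrow, had 5 and 1 UMIs in rich spots of the NV female, and Ngp had 1 in those of the V male. Those of the NV female, and the 4 UMIs of Ltf there, all lay in 1 spot, the one with the most rule gene UMIs in that section. Ly6g, the surface marker used to sort mouse neutrophils, had 0, 0, 2 and 1 UMIs in rich and 1, 0, 6 and 1 in other spots, too few to be tested.

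Il1b, the gene of the inflammatory cytokine interleukin-1 beta, was at 52.2, 18.7, 31.5 and 14.9 CPM in rich spots, against 15.8, 6.16, 7.80 and 3.67 CPM in other spots. Rich spots were higher in all 4 sections and the log2 fold change was 1.75 (SE 0.28, adjusted p = 2.15e-07). It was the 1 gene to pass among 17 tested cytokine and mature neutrophil genes. The decoy receptor gene Il1r2 had a log2 fold change of 1.59 (adjusted p = 0.075), with no UMI in the rich spots of the V female. Srgn, the proteoglycan that packs granule proteins, had one of 0.28 (adjusted p = 0.15) and the prostaglandin synthase gene Ptgs2 one of -1.38 (adjusted p = 0.13). Stfa2l1, a stefin gene of mature neutrophils, had 2, 2, 14 and 1 UMIs in rich and 6, 4, 71 and 10 in other spots and did not reach the filter on low counts.

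**Figure D1:**
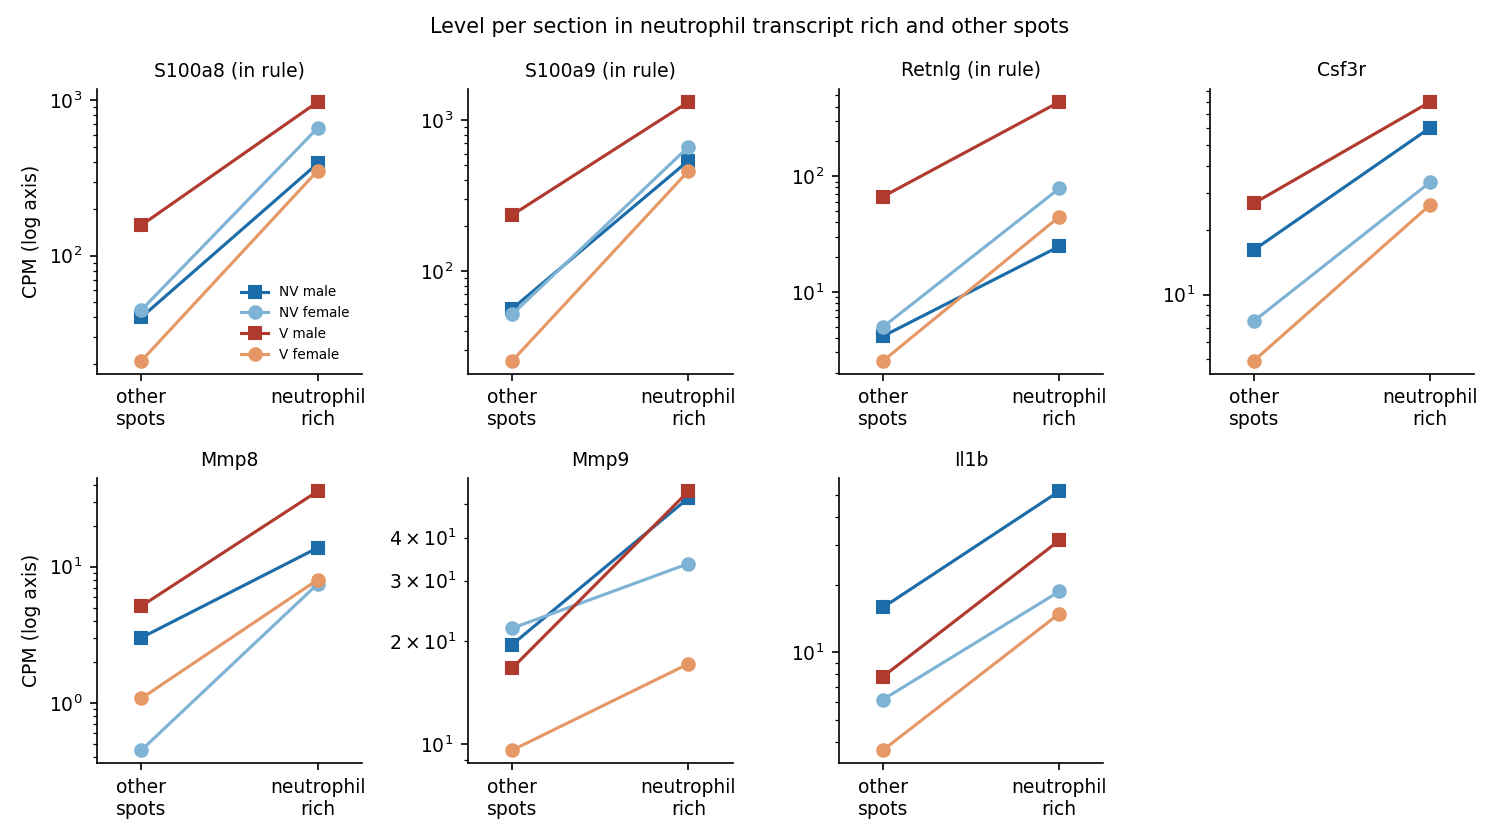
CPM (log axis) of the 3 rule genes and 4 neutrophil genes outside the rule in other spots and in neutrophil transcript rich spots, 1 line per section (squares, males; circles, females; blue, NV; red and orange, V). Every line rises, for the rule genes because they chose the spots and for Csf3r, Mmp8, Mmp9 and Il1b in all 4 sections.

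**Figure D2:**
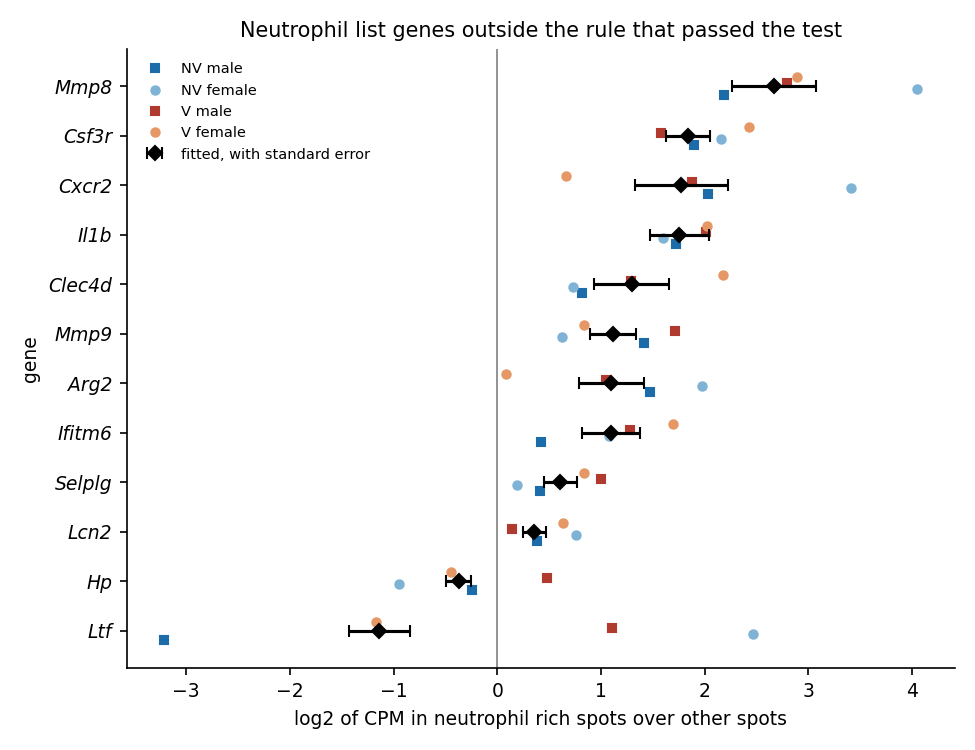
Log2 ratio of the level in rich over other spots for 12 neutrophil genes that passed the test, as 1 point per section and as the fitted value with its standard error (diamonds). The sections lie to the right of 0 for the 10 higher genes shown, while Hp and Ltf have sections on both sides.

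In parenchyma spots alone, 17 of 14304 genes passed between rich and other spots. Of these, 6 were higher in rich spots (0.0419% of genes tested), and all 6 were on the neutrophil lists. They included Mmp8 with a log2 fold change of 2.46 (SE 0.42, adjusted p = 2.27e-05), Stfa2l1 with 2.25 (SE 0.51, adjusted p = 0.0106), Csf3r with 1.77 (SE 0.22, adjusted p = 3.40e-12), Il1b with 1.55 (SE 0.29, adjusted p = 0.000190) and Mmp9 with 1.49 (SE 0.25, adjusted p = 7.24e-06). Cxcr2, Selplg, Clec4d, Ifitm6, Arg2 and Lcn2 did not pass there, with log2 fold changes of 1.71, 0.52, 1.16, 0.96, 1.02 and 0.11. Their edgeR adjusted p were 0.088, 0.25, 0.38, 0.25, 0.25 and 0.95. The lower genes fell in number from 564 to 11, among them Dcn, Retnla, Ccl17, Malat1 and the cardiac genes Myh6, Myl4 and Mb. Csf3r, Mmp8, Mmp9 and Il1b, named together here after their values were seen, were also among the 5 neutrophil genes that DESeq2's Wald test called when it adjusted over all genes. With its default filter on mean counts, DESeq2 called 127 genes and 0 of the 58 neutrophil genes. It gave no adjusted p for 11 of the 13 that edgeR called, 11 of the 13 had an unadjusted p under 0.05, and Lcn2 and Hp had adjusted p of 0.0665 and 0.448. These 4 genes passed in each fit that left out 1 section. When other spots were weighted to the depth of the rich spots, 8 neutrophil genes were higher among 21 of 13416 genes (0.157%), and when the spots were chosen on a separate part of the UMIs, 20 genes (0.148%) were higher, among them Mmp8, Il1b, Csf3r and Mmp9. No neutrophil gene outside the rule passed when spots were chosen on Retnlg alone or thinned to 2000 UMIs.

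Several of the genes with the largest rises were not on the neutrophil lists. Gm16556, a gene without a known product, rose by 2.96 (SE 0.72, adjusted p = 0.00225) from 1, 1, 3 and 6 UMIs in rich spots. Sh2d2a, the gene of a T cell adaptor, rose by 1.71 (SE 0.46, adjusted p = 0.00894) and Klrk1, which encodes the receptor NKG2D of NK and T cells, by 1.201 (SE 0.36, adjusted p = 0.0257), both in 4 of 4 sections. Of the 10 largest falls that held in all sections, 6 genes (Ppil6, Efhd1, Crhr2, Armcx6, Ubxn10 and Rab36) had no UMI in any rich spot. Set against a floor of 3 UMIs over the 4 sections, these were at least 2.07-fold to 3.07-fold lower. The remaining 4, Cpxm2, 1700007K13Rik, Gxylt2 and Inpp5j, had 1 UMI each in rich spots and fitted log2 fold changes between -3.58 and -3.48.

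Genes of neutrophil recruitment were compared in the same way, against the 4.29% of all genes that were called. Of 11 tested chemoattractant and growth factor genes, Cxcr4 rose by 0.63 (SE 0.16, adjusted p = 0.0040) and the complement gene C3 fell by 0.57 on the log2 scale (adjusted p = 1.28e-05). CXCR4 is the receptor through which aged neutrophils return to the marrow and is also carried by lymphocytes. Cxcr4 was at 98.9, 74.7, 73.5 and 33.2 CPM against 45.2, 40.1, 50.7 and 24.4 CPM, higher in all 4 sections. The list's median was -0.08 and turned to 0.04 under scaling by library size. Cxcl15, the lung chemokine lungkine, had a log2 fold change of 0.25 (adjusted p = 0.20), and Cxcl1 was at 0, 3.73, 2.10 and 1.14 CPM in rich spots. Cxcl2 was not counted in any rich spot and had 28 UMIs in other spots, 24 of them in the V female. Of 10 tested endothelial adhesion genes, Cdh5, the junctional VE-cadherin, passed with 0.40 (adjusted p = 0.0054), while Icam1 had 0.17 (adjusted p = 0.51) and Selp, P-selectin, had 0, 0, 0 and 1 UMIs in rich spots. Of 21 genes of S100A8/A9 receptors and signalling none passed, and their median was 0.00. Ager, the receptor for advanced glycation end products, had a log2 fold change of 0.21 (adjusted p = 0.34) and Tlr4 one of -0.01, with 13.7, 3.73, 10.5 and 11.4 CPM in rich against 10.7, 10.97, 9.12 and 9.38 CPM in other spots.

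Markers of other blood and immune cells moved with the rich spots in part, and their part in the results above was not tested. The summed NK cell markers were higher in rich spots in all 4 sections, at 139 to 224 CPM against 114 to 124 CPM, and Gzma alone of 8 genes passed (log2 fold change 0.89). The summed T cell markers were at 97.3 to 162 CPM against 77.9 to 108 CPM, also higher in all sections, and Cd3d alone of 9 passed (0.90). Red blood cell transcripts were 1.10 to 1.51 times as high in rich as in other spots and none of 8 genes passed. Monocyte markers, the nearest to neutrophils, were 0.979 to 1.51 times as high, with none of 10 higher and Vcan lower (log2 fold change -2.01), and 1 higher and 0 lower under scaling by library size. Ly6c2, a defining marker of classical monocytes, had a log2 fold change of 0.38 and Ccr2 one of -0.46, and neither passed. Alveolar macrophage markers were 0.994 to 1.52 times as high, with Chil3 higher (0.38), and interstitial macrophage markers 0.666 to 0.836 times as high, with C1qa, C1qb and C1qc lower. The B and plasma cell list was lower in all 4 sections, at 523 to 1280 CPM against 611 to 2290 CPM, with Ighm, Iglc2 and Jchain passing among 9 genes. The immunoglobulin genes Ighd and Iglc1, which are not on that list and were picked after their values were seen, were instead higher, with log2 fold changes of 0.49 (SE 0.14, adjusted p = 0.0165) in 4 of 4 sections and 0.55 (SE 0.16, adjusted p = 0.0165) in 2 of 4. Eosinophils were hardly represented, since Epx had no UMI and Prg2 none in rich spots, and their summed markers were at 2.75 to 12.6 CPM against 5.24 to 9.02 CPM. No gene passed for dendritic cells (8 tested) or mast cells and basophils (5 tested), and Pf4 alone of 8 platelet genes was lower (-0.86).

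The rich spots held a higher share of parenchyma, as given above, and structural markers are listed beside it. Capillary endothelium was 1.03 to 1.68 times as high in rich spots and higher in 4 of 4 sections, with Cldn5 (0.36) and Calcrl (0.33) passing among 9 genes. AT1 markers were 0.974 to 1.67 times and AT2 markers 0.934 to 1.66 times as high, with Lamp3 (0.33) alone passing. Efnb2 was higher among 8 genes of large vessel endothelium. Cardiac muscle was 0.276 to 0.737 times as high with 7 of 8 genes lower, adipocytes 0.340 to 0.846 times with 6 of 8 lower, and smooth muscle 0.430 to 0.845 times with 3 of 6 lower. Basal and mucous epithelium was 0.450 to 0.469 times as high with 3 of 5 genes lower, and club cell markers 0.510 to 1.02 times with 3 of 5 lower. Tmem212 alone of 7 ciliated cell genes was lower, 4 of 8 fibroblast genes (Col1a2, Col3a1, Dcn and Lum) were lower (2 higher and 2 lower under scaling by library size), and none of 6 mesothelial genes passed. Of 13 mitochondrially encoded genes 12 were lower, with a median of -0.60. None of 10 immediate-early genes passed, and of 8 interferon-stimulated genes Ifi27l2a alone was lower (-0.97).

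**Figure D3:**
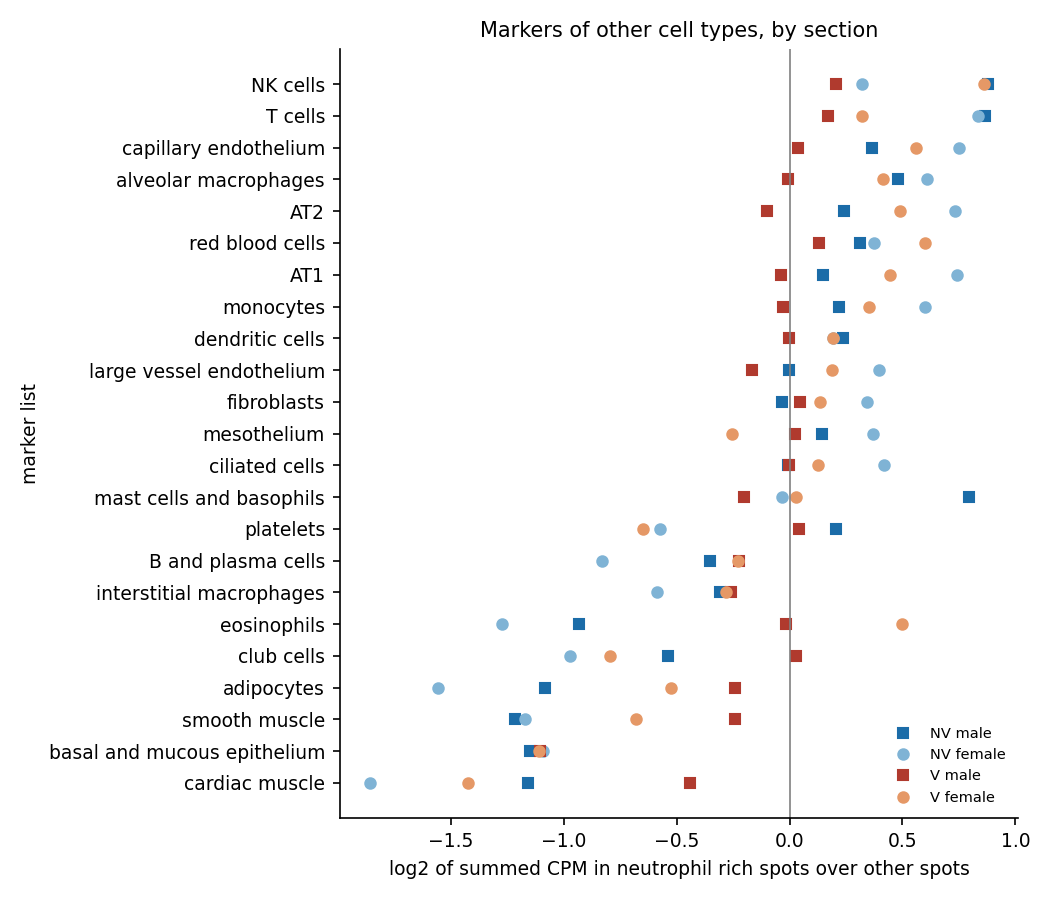
Log2 ratio of the summed CPM of each marker list in rich over other spots, 1 point per section, ordered by the median of the sections. Cardiac muscle, smooth muscle, adipocytes, basal and mucous epithelium, interstitial macrophages, and B and plasma cells lie left of 0 in all 4 sections. NK and T cells, capillary endothelium and red blood cells lie right of 0 in all 4.

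Whether V and NV mice differed in neutrophil transcripts was examined over all eligible spots, since the highest 5% were taken from every section whatever its level. Fewer neutrophils and less RNA per neutrophil cannot be told apart in these sums. The V sections lay apart from each other. S100a8 was at 53.8 and 68.6 CPM in the NV sections, and above them in the V male (190 CPM) and below them in the V female (29.5 CPM). S100a9 was at 279 and 36.5 CPM in the V sections against 75.0 and 75.3 CPM in the NV sections, and Retnlg at 81.7 and 3.60 CPM against 4.93 and 7.80 CPM. In each case the V male was highest and the V female lowest, so that the V sections enclosed both NV sections. The log2 fold changes of V over NV were 0.73 (SE 0.83) for S100a8, 0.96 (SE 0.90) for S100a9 and 2.61 (SE 1.43) for Retnlg, with an edgeR adjusted p of 0.9997 for each and none past the threshold. Without the V female they were 1.497, 1.75 and 3.56, and without the V male -0.98, -0.97 and -0.73. An exact permutation test of 2 against 2 mice cannot give a two-sided p below 0.33.

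Of 14558 genes tested between V and NV over all eligible spots, edgeR called 0 (0%), with 250 at an unadjusted p under 0.05, and DESeq2 called 32. Without the V female edgeR called 1066 genes, and without the V male 24. The DESeq2 calls included Ifitm1, which is expressed in many cell types, as the 1 neutrophil list gene (edgeR log2 fold change 0.81, SE 0.19, adjusted p = 0.9997). Of the 58 neutrophil genes, 5 (Fpr1, Ifitm1, Pglyrp1, Anxa1 and Il1rn) were higher in both V than in both NV sections, where 12.4% of all genes were, and 11 were lower, where 14.5% of all genes were. Csf3r, with 17.9, 8.52, 28.9 and 5.45 CPM, was also highest in the V male and lowest in the V female. Between the NV sections it was higher in the male, whereas S100a8 and Retnlg were higher in the female. Mmp9 was at 20.8, 22.2, 18.2 and 9.81 CPM, so that the groups did not overlap, but its log2 fold change of -0.68 (SE 0.29, adjusted p = 0.9997) did not pass. Il1b was highest in the NV male (17.3 CPM) and at 8.76 CPM in the V male.

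Of the 13 neutrophil genes that differed between rich and other spots, 6 (Csf3r, Cxcr2, Mmp8, Clec4d, Lcn2 and Arg2) had their highest level over all eligible spots in the V male, as the rule genes did. The highest level of 4 was in the NV male, of 2 in the NV female and of 1 in the V female. The share of all genes that were highest in the V male was not determined, so the count is a description. Cxcr2 was at 2.25, 1.44, 8.25 and 1.46 CPM and Mmp8 at 3.43, 0.722, 6.38 and 1.26 CPM. The excess in the V male was uneven among the rule genes themselves. For 100 UMIs of S100a8, eligible spots of the V male held 42.9 UMIs of Retnlg, against 9.16 and 11.4 in the NV male and NV female and 12.2 in the V female. The proportion was nearly the same in the rich spots (44.9) and other spots (42.4) of the V male. S100a9 varied less, with 146, 139, 110 and 124 UMIs for 100 of S100a8 in the V male, NV male, NV female and V female. The V male also had the fewest Mmp9 UMIs for 100 of S100a8 (9.56 against 32.4 to 38.6). With 1 section of this kind, these proportions have no replicate. In parenchyma spots alone the summed rule genes were at 551 CPM in the V male and at 165, 246 and 102 CPM in the NV sections and the V female, against 550 CPM and 134, 152 and 69.5 CPM over all eligible spots.

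**Figure D4:**
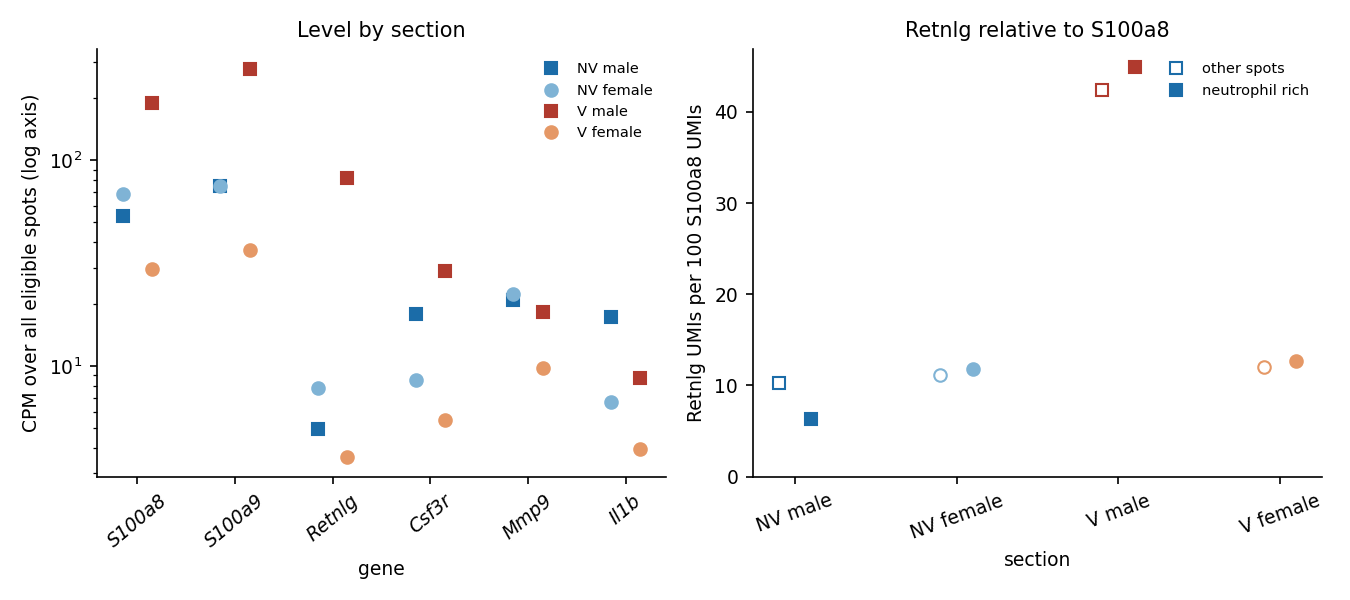
Left, CPM over all eligible spots (log axis) of the rule genes and 3 further neutrophil genes in the 2 NV (blue) and 2 V (red and orange) sections, squares for males and circles for females. Right, Retnlg UMIs per 100 S100a8 UMIs in other (open) and rich (filled) spots of each section, at 42.4 and 44.9 in the V male and between 6.29 and 12.7 elsewhere.

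Within the rich spots, edgeR called 19 of 14359 genes (0.132%) between V and NV, 10 higher and 9 lower in V, and none of the 58 neutrophil genes, of which 1 had an unadjusted p under 0.05. Of all genes, 579 had an unadjusted p under 0.05, and DESeq2 called 0. Without the V female 168 genes were called, without the V male 140 and without the NV female 43. Of the 10 higher genes 8 overlapped between the groups, because they were high in the V female and at or near 0 in the V male. Ucp1, the uncoupling protein of brown fat, had 532 UMIs in the rich spots of the V female and none in the other 3 sections (adjusted p = 1.79e-05). The brown fat gene Cidea (413 UMIs in the V female and 0 in the V male) and the airway secretory gene Bpifa1 (3126 and 2 UMIs) were also highest in the V female. Reg3g, an antimicrobial lectin gene of epithelium, had 1, 0, 2 and 148 UMIs, and its groups did not overlap. Cyp1a1, a cytochrome induced through the aryl hydrocarbon receptor, was instead high in the V male, at 147 CPM (70 UMIs), against 5.50, 0 and 5.72 CPM for the NV sections and the V female (log2 fold change 4.40, SE 0.91, adjusted p = 0.0117). It was high in the other spots of the V male as well, at 115 CPM. The 9 lower genes did not overlap between the groups. The heat shock genes Hspa1a and Hspa1b fell by 3.04 (SE 0.44, adjusted p = 2.42e-05) and 2.67 (SE 0.48, adjusted p = 0.00143), with Hspa1a at 85.2, 149, 6.30 and 17.2 CPM. Kcnj2, the gene of a potassium channel, fell by 2.98 (adjusted p = 0.0440), the growth factor signalling inhibitor gene Spry4 by 2.61 (adjusted p = 0.0117) and the immediate-early gene Nr4a1 by 2.22 (adjusted p = 0.00320). Among neutrophil genes, 8 of 58 were higher in both V sections and 7 lower, where 13.4% and 16.9% of all genes were.

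A difference between V and NV in the contrast of rich with other spots was called for 9 of 14555 genes (0.0618%), none of them among the 58 neutrophil genes, with 4 of these at an unadjusted p under 0.05 (over all genes, 624). DESeq2 called 0. Without the NV male 5 genes were called, without the V male 2 and without the NV female 0. Of the 9, 8 had the larger ratio in V, led by Fuom (2.55), Thrsp (1.59), Iglc2 (1.47), Cox8b (1.38) and Agpat2 (1.26), and 1, the immunoglobulin A gene Igha, the smaller (-1.59). Thrsp, Cox8b and Agpat2 are expressed in fat, and whether fat in the sections bears on these calls was not tested. In parenchyma spots alone, with rich spots chosen anew, no gene was called, with 569 at an unadjusted p under 0.05. For Csf3r, the contrast in V minus that in NV was 0.01 (SE 0.39, adjusted p = 1), from 79.9 against 26.8 CPM and 26.3 against 4.90 CPM in the V sections and 60.5 against 16.2 CPM and 33.6 against 7.51 CPM in the NV sections.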

How the data were processed

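UMI counts were analysed for 4 lung sections, 1 per mouse, with 2 mice in each of the V and NV groups, and samples were assigned from the labels. For these counts the authors ran SpaceRanger on the Visium reads against a GRCm38 mouse reference, and they deposited whole-number counts per gene and tissue-covered spot (32285 genes), without the Seurat 4.0.3 normalization that their processing notes name. Sections held between 473 and 2053 spots and 6957392 and 34308556 UMIs.

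Spots under 2000 UMIs were left out (301 of 4933). Counts of rich and of other spots were summed per section and tested by the quasi-likelihood method of edgeR 4.0.16 (R 4.3.3), after filterByExpr on the section totals and TMM scaling. A call needed an adjusted p (Benjamini-Hochberg) below 0.05 and an absolute log2 fold change above 0.25. The rule genes were left out of tests in which they had chosen the spots. Each SE is the log2 fold change divided by the root of F, and CPM were scaled to total UMIs alone. The p-values rest in part on a spread fitted over genes of similar level, not on the sections of 1 gene alone. With section as a block, the gene's own part is how its difference between rich and other spots varied from section to section. For V against NV without such a block, that part is the spread between sections of a group. A gene can therefore be called although its sections disagree, as Ltf, Iglc1 and Ucp1 were. DESeq2 1.42.0, other scalings, filters, member shares, scores and depths, each section left out and, for V against NV, a replicate block were alternatives. Further alternatives, added after the data had been seen, were parenchyma spots alone, at least 3 rule gene UMIs per rich spot, and DESeq2 without independent filtering.

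The spots, the marker lists and the tests were chosen with earlier results of these data known. Named genes were those of the neutrophil lists that passed or whose level bore on the comparison, the 10 largest rises and 10 largest falls of rich spots that held in all 4 sections, up to 5 called genes per direction in the other comparisons, and called members of the other lists. A gene that the counts include is not reported here. Positions of spots and the images were not analysed here. Promoter windows were found for all 4 genes looked up, and gene coordinates came from GENCODE vM21.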

Additional observations from a re-analysis of the deposited data

Results flagged for a closer look

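The contrast of rich with other spots differed between V and NV sections in 6 named genes, tested with an interaction term in edgeR. On the log2 scale, the contrast in V minus that in NV was 2.55 for Fuom, 1.59 for Thrsp, 1.47 for Iglc2, 1.38 for Cox8b, 1.26 for Agpat2 and -1.59 for Igha. Each of them lost its call in parenchyma spots alone, where Igha stood at 0.34, and by DESeq2. For Fuom and Thrsp, rich spots of the V male held 9 and 2 UMIs and those of the NV male 0 and 14 UMIs.

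Spots under 2000 UMIs entered no comparison. In these, the summed rule genes of the V male were at 584 CPM (68 UMIs in 76 spots), above the NV male (66.3 CPM, 4 UMIs) and NV female (175 CPM, 6 UMIs), whereas the V female was at 83.7 CPM (13 UMIs). The eligible spots of the V male were at 550 CPM.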

How the results depend on the processing

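The number of genes called between rich and other spots was 127 by DESeq2, 111 without its independent filtering, 274 with the highest 2% of spots, 194 with Retnlg alone, 390 with a separate part of the UMIs, 44 after thinning to 2000 UMIs, 228 with depth weighting, 0 without the section block (425 at an unadjusted p under 0.05) and 17 in parenchyma spots, against 625. Without 1 section it was 297 to 756 (297 without the V female, 370 without the NV male, 392 without the NV female). Called neutrophil genes numbered 0 by DESeq2, which gave no adjusted p for 11 of the 13, 5 without its independent filtering, 6 on a separate part of the UMIs, 8 with depth weighting, 6 in parenchyma spots, and 0 with Retnlg alone, after thinning or without the section block, against 13, and 7 to 11 without 1 section.

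Between V and NV in rich spots, 19 calls became 0 by DESeq2 with or without independent filtering, with a filter on the sums compared, with the highest 10% of spots, with Retnlg alone or with a separate part of the UMIs. They became 45 with DESeq2 size factors, 49 with library size alone, 51 without a filter, 47 and 42 at minima of 1000 and 5000 UMIs, 38 with the highest 2%, 50 with S100a8 and S100a9, 10 after thinning, 7 with at least 3 rule gene UMIs, 39 in parenchyma spots, and 16 to 168 without 1 section (168 without the V female, 140 without the V male, 43 without the NV female). Over all eligible spots, 0 calls became 32 by DESeq2, 31 without independent filtering, and 0 to 1066 without 1 section (1066 without the V female, 24 without the V male).

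For the difference of the contrast between V and NV, 9 calls became 0 by DESeq2 with or without independent filtering, at 5000 UMIs or in parenchyma spots, 3 with DESeq2 size factors, a filter on the sums compared or 1000 UMIs, and 1 with library size alone, the highest 10%, a separate part of the UMIs or thinning. They became 23 with the highest 2%, 2 with S100a8 and S100a9, 100 with Retnlg alone, and 0 to 6 without 1 section (0 without the NV female, 2 without the V male, 5 without the NV male).

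Replicate numbers follow sex, and with 2 pairs the shared number is no pairing. The correlation of same-numbered deviations was 0.042 in rich spots and 0.33 over all eligible spots. The fit with the replicate block called 44 genes in rich spots and 0 over all eligible spots (405 at an unadjusted p under 0.05).

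Signs turned for Clec4d (-0.41 after thinning), with Retnlg alone for Arg2 (-0.067), Hp (0.13), Sh2d2a (-0.017), Efhd1 (0.14), Ubxn10 (0.47) and 1700007K13Rik (0.14), for Hp (0.0071) and Igha (0.34) in parenchyma spots, and, V against NV, without 1 section over the ranges -0.98 to 1.497 for S100a8, -0.97 to 1.75 for S100a9 and -0.73 to 3.56 for Retnlg (lowest without the V male), and -4.30 to 6.28 for Cidea and -3.63 to 6.12 for Bpifa1 in rich spots (lowest without the V female). Where no value above shows it, the cause was not tested. Low counts, 1981259 UMIs over all rich spots, limit what can be called.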

Other observations

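Some genes outside the lists that leukocytes express were also called higher in rich spots. The pan-leukocyte gene Ptprc (CD45) was at 104, 78.4, 90.4 and 117 CPM in rich spots of the NV male, NV female, V male and V female, against 69.6, 64.6, 61.0 and 63.5 CPM in other spots (log2 fold change 0.54, SE 0.13, edgeR adjusted p = 0.00179). Rac2, a GTPase of blood cells that the neutrophil oxidase needs, rose by 0.53 (SE 0.13, adjusted p = 0.00261), and Gsr, glutathione reductase, by 0.55 (SE 0.16, adjusted p = 0.0179), each in 4 of 4 sections. Abcg1, a sterol transporter gene, rose by 0.72 (SE 0.14, adjusted p = 2.63e-05), also in 4 of 4 sections.

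Il1f9, the gene of interleukin-36 gamma, had 4, 0, 5 and 3 UMIs in rich spots and a log2 fold change of 2.86 (SE 0.69, adjusted p = 0.00177), with the NV female against the direction. Trpm2, an oxidant-gated channel gene, had 3, 2, 1 and 6 UMIs and a log2 fold change of 1.96 (SE 0.61, adjusted p = 0.0370), with the V male against it. The chemokine receptor gene Ccr1 was at 35.7 and 17.2 CPM in rich spots of the V male and V female, against 9.83 and 7.36 CPM in other spots, and at 5.50 and 3.73 CPM in those of the NV male and NV female, against 4.80 and 6.01 CPM (log2 fold change 1.14, SE 0.33, adjusted p = 0.0165). Its difference between V and NV did not pass in the test of the contrast. These genes were chosen after their values had been seen.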
